A study of Mus musculus with 24 samples.

Results

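AP-1 is a family of transcription factors made of pairs of leucine zipper proteins. The members described here are Fos, Fosb and Fosl2 of the Fos type, Jun, Junb and Jund of the Jun type, and Atf3, a related factor of the ATF type. They were taken by gene symbol from a table of 19661 genes, and all 7 listed symbols were found. Transcripts of the dorsal hippocampus were sequenced from 24 mice, 1 library each, and levels are given as RPKM (reads per kilobase of transcript per M reads), which corrects for length, so that levels of different genes can be set side by side. The mice made up 4 groups of 6: wild-type C57BL/6J mice from the home cage, wild-type C57BL/6J mice trained in Object Location Memory and killed 30 minutes later, and Baf53b+/- mice, heterozygous for the Actl6b<tm1Grc> allele on a background labelled B6J.129S6, under the same pair of conditions. The task lets a mouse explore objects at fixed places in an arena. Actl6b encodes BAF53b, a subunit of the BAF chromatin remodelling complex of neurons. The comparisons ask how the family's transcripts stood 30 minutes after a learning event, and whether a reduced dose of Actl6b went with a different resting level or a different response.

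Fos proteins bind DNA mainly as partners of a Jun protein, whereas Jun proteins can also pair with each other. Atf3 can pair with itself or with a Jun protein and is best known as a repressor. Fos, Fosb and Junb are classic immediate early genes, whose transcription rises within minutes of synaptic activity through kinases that act on the factors CREB and SRF already bound at their promoters. In the hippocampus, Fos protein is widely used to mark neurons that were recently active. Jund is known as the member with the most constant expression.

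The labels gave neither the age nor the sex of the mice, and they gave the second strain background for the heterozygotes alone, so that strain and allele cannot be told apart. The home cage was the only control, and handling or novelty cannot be told apart from learning. Actl6b lay between 46.4 and 54.4 RPKM in the 12 wild-type libraries and between 27.3 and 32.4 RPKM in the 12 Baf53b+/- libraries, with no overlap. Its mean in heterozygotes was 58.5% of wild type in the home cage and 55.7% after training (two-sided exact permutation test, p = 0.00216 each, the smallest p that 6 against 6 animals allow). Depth, recovered from the values, ran from 28.4 to 46.9 M reads per library with a median of 34.4 M. The summed RPKM of 5 neuron markers lay between 3111 and 3759, that of 3 CA1 markers between 138 and 213, and that of 3 dentate gyrus markers between 36.7 and 110. The summed RPKM of 7 choroid plexus markers ran from 13.3 to 4708, and 7 libraries, spread over all 4 groups, stood apart as rich in them. No gene of any marker list passed the test in any comparison below, by limma on all 12399 genes tested. The lists did shift between groups without passing. For the dentate gyrus markers the median log2 difference with training was -0.19 in wild type and 0.23 in heterozygotes, and 0.41 for the interaction. For the choroid plexus markers the median difference of heterozygotes from wild type in the home cage was 0.91.

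Promoter stretches are shown for the 4 members that passed after training in wild type (Fos, Fosb, Fosl2 and Junb) and for Atf3. Among heterozygotes, Atf3 was higher in trained mice than in mice from the home cage. A search was made for the core of the cyclic AMP response element (CRE), the DNA element that CREB recognises. RefSeq sequence of build GRCm38.p6, matched by symbol for all 7 members, was read for the 250 bases before each gene's start. TGACG was searched on both strands, so that CGTCA also counts, and it was present in Fos, Fosb, Junb and Atf3 and in 17.8% of all 32851 promoters of the same length. In Fos (chr12:85473640-85473889, plus strand) it stood 129 to 125 and 66 to 62 bases before the start. In Fosb (chr7:19310046-19310295, minus strand) it stood 60 to 56 bases before the start, in Junb (chr8:84978749-84978998, minus strand) 106 to 102, and in Atf3 (chr1:191183334-191183583, minus strand) 7 to 3, there as CGTCA. The stretch of Fosl2 (chr5:32136222-32136471, plus strand) does not hold it. The 5 stretches are written 5′ to 3′ along each gene, with the core in capitals.
Fos: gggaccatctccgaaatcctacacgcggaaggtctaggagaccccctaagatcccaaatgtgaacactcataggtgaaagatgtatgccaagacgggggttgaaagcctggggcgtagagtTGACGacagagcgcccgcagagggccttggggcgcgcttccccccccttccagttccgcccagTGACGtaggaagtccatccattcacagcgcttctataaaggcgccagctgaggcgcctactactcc
Fosb: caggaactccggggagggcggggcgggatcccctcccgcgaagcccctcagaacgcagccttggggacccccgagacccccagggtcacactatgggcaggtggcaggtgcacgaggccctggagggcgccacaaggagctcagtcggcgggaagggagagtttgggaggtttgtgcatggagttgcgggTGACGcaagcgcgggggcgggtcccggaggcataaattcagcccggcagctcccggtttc
Fosl2: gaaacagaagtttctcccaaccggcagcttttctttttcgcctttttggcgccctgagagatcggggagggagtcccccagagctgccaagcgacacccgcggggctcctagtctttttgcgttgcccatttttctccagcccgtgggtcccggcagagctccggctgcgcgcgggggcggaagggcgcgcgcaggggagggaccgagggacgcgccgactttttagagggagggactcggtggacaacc
Junb: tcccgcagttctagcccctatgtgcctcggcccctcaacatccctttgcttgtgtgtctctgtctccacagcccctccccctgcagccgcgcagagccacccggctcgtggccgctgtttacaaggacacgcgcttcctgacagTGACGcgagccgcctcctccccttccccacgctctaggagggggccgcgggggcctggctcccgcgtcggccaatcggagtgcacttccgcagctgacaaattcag
Atf3: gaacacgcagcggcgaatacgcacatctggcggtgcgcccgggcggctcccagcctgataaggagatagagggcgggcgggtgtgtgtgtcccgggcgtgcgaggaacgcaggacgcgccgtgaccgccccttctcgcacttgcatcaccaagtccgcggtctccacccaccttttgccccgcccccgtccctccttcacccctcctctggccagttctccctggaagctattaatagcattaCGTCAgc
The full CRE, TGACGTCA, which contains the core, was in 1.55% of all promoters and in no member. TGANTCA, a form of the AP-1 site itself, was in 6.75% of all promoters and in no member. Forms of another length were not searched, and the stretch of Jun holds the letters TGACATCA. The CArG box, bound by SRF, was in 1.47% of all promoters and in no member. TATAAA was in 12.4% of all promoters and, among the members, in Fos alone, 33 to 28 bases before the start. As in Fosl2, no TGACG was found in these 250 bases of Jun or Jund. These matches are letters in a window of 250 bases and were not measured as bound sites. Bases farther upstream, where a CArG box or a CRE could also lie, were not searched.

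After training, Fos, Fosb, Fosl2 and Junb rose in wild-type mice, while Jun and Jund, the most abundant members at rest, did not pass the test. In Baf53b+/- mice Fos, Fosb and Junb rose, and Fosl2 was higher by the exact permutation test without passing after adjustment over all genes. Atf3 was higher in each of the 6 trained heterozygotes than in every heterozygote from the home cage. The share of all genes whose groups did not overlap was not counted, here or for the members below. In wild type Atf3 was also higher after training (1.37-fold, exact permutation test, unadjusted p = 0.0195), with overlapping groups. Levels of 6 members exceeded the filter of a mean of 1 RPKM and entered the limma fit, in which 4 of 6 passed in wild type, all higher, where 1.08% of the 12399 genes passed and 0.96% passed as higher. In Baf53b+/- mice 3 of 6 passed, all higher, where 1.03% of genes passed and 0.887% passed as higher. Atf3 fell below the filter and was tested by its RPKM alone and in a fit without that filter. In whole tissue, fewer cells of a type and less RNA per cell cannot be told apart, and this holds for every level below. The animals were separate mice, so that p-values measure the spread between animals.

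**Figure D1:**
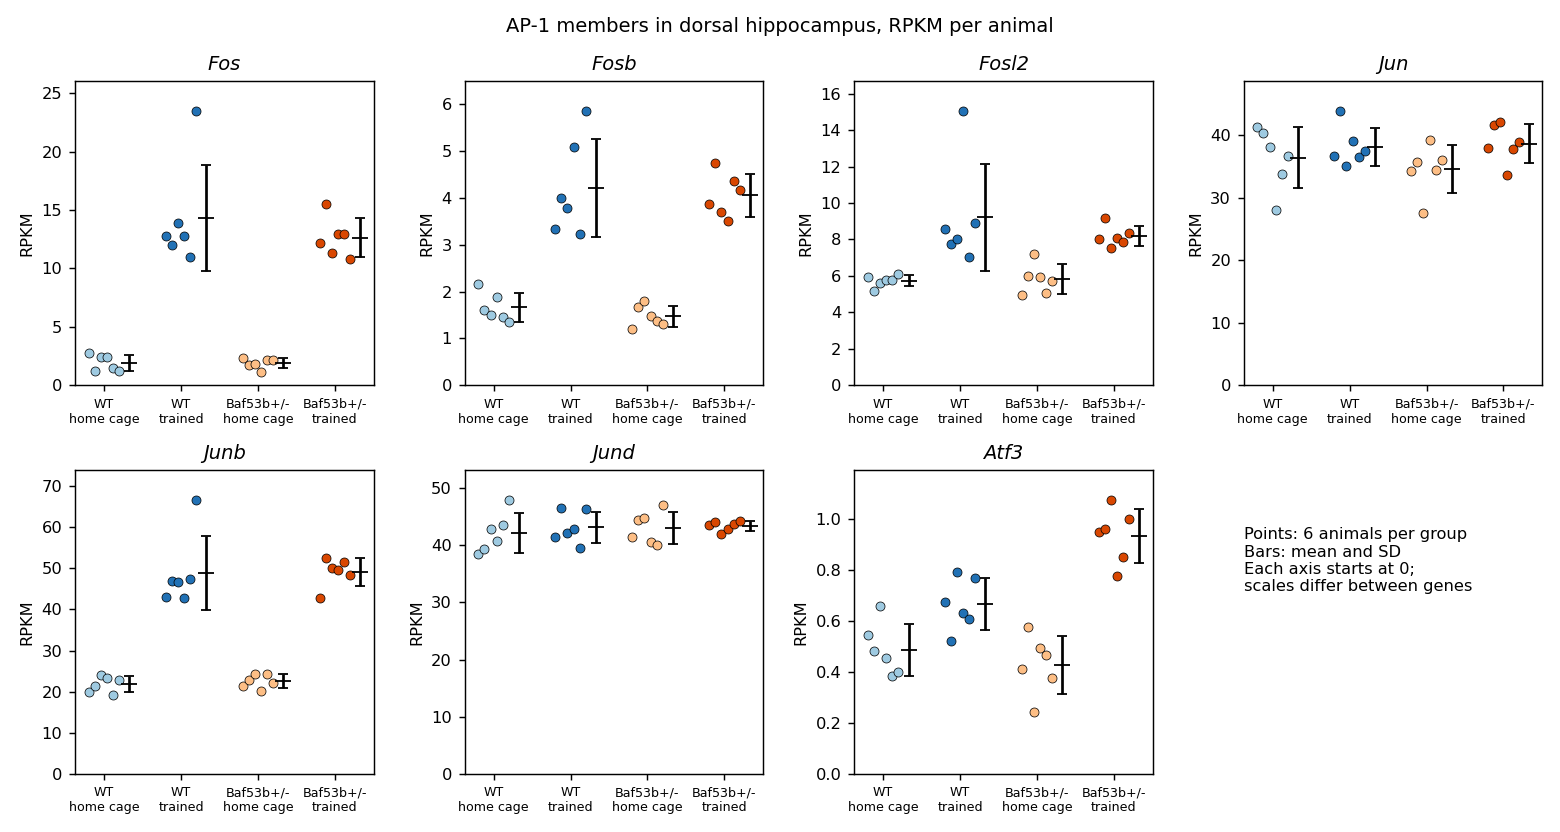
RPKM of the 7 AP-1 members (vertical axes, each from 0, scales differ) in 4 groups of 6 mice, with points for animals and bars for the mean and SD. Fos, Fosb, Fosl2 and Junb of trained and home cage mice did not overlap within a genotype, while the groups of Jun and Jund overlapped. The closest was Fosl2 in Baf53b+/- mice, at 7.52 against 7.21 RPKM. The share of all genes separated in this way was not counted.

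Fos (chromosome 12, 86814851 to 86818219, build mm9) encodes the founding member, whose protein is short-lived and pairs mainly with a Jun protein. In wild-type mice from the home cage its RPKM ran from 1.19 to 2.74 with a median of 1.90, and after training from 10.98 to 23.4 with a median of 12.8. In Baf53b+/- mice it ran from 1.103 to 2.31 with a median of 1.94, and after training from 10.8 to 15.5 with a median of 12.6. The lowest trained mouse of either genotype was thus above the highest home cage mouse, and 1 trained wild-type mouse, number 2436, was well above the other 23. Mean RPKM rose from 1.89 ± 0.687 to 14.3 ± 4.58 in wild type (SD, n = 6), a 7.56-fold difference, and from 1.86 ± 0.44 to 12.6 ± 1.67 in heterozygotes, a 6.78-fold difference. The exact permutation test gave p = 0.00216 in each genotype. On the log2(RPKM + 0.5) scale, where changes of scarce transcripts come out smaller, the difference was 2.63 ± 0.18 (SE; limma, adjusted p = 2.75e-09) in wild type and 2.49 ± 0.18 (adjusted p = 5.76e-09) in heterozygotes. It was the largest response within the family in both genotypes.

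Fosb (chromosome 7, 19888045 to 19895394, mm9) encodes a close relative of Fos and, by splicing, the shorter and longer-lived deltaFosB, which a value per gene does not separate. Its RPKM in wild type ran from 1.36 to 2.17 with a median of 1.55 at rest and from 3.22 to 5.85 with a median of 3.89 after training. In heterozygotes it ran from 1.21 to 1.81 with a median of 1.42 at rest and from 3.50 to 4.74 with a median of 4.03 after training. Trained and home cage animals did not overlap in either genotype. The mean was 2.54-fold higher after training in wild type and 2.77-fold higher in heterozygotes (exact permutation test, p = 0.00216 in each). The limma difference was 1.11 ± 0.12 (SE) with an adjusted p of 1.27e-06 in wild type and 1.21 ± 0.12 with an adjusted p of 2.78e-07 in heterozygotes.

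Fosl2 (chromosome 5, 32438845 to 32460212, mm9) encodes Fra-2, a Fos-type protein that lacks the strong activation domain of Fos. Its RPKM in wild type ran from 5.19 to 6.10 with a median of 5.78 at rest and from 7.02 to 15.04 with a median of 8.31 after training. In heterozygotes it ran from 4.96 to 7.21 with a median of 5.83 at rest and from 7.52 to 9.16 with a median of 8.07 after training. The groups did not overlap within a genotype, and the trained wild-type mouse 2421, at 15.04 RPKM, stood far above the next animal of its group, at 8.90. The mean was 1.61-fold higher after training in wild type and 1.40-fold higher in heterozygotes (exact permutation test, p = 0.00216 in each). The limma difference was 0.60 ± 0.12 (SE; adjusted p = 0.00814) in wild type and 0.46 ± 0.12 (adjusted p = 0.0532) in heterozygotes, and the test of the average over both genotypes gave 0.53 ± 0.08 (adjusted p = 0.000247). All 4 groups share 1 estimate of spread in this fit. Without mouse 2421 the difference was 0.45 (adjusted p = 0.000727) in wild type and 0.46 (adjusted p = 0.000306) in heterozygotes. The wild-type call was lost without the 7 libraries rich in choroid plexus markers (0.69, adjusted p = 0.0561). It was also lost with the 2 wild-type groups fitted alone (0.60, adjusted p = 0.0976). Without the 7 libraries the difference in heterozygotes was 0.44 (limma, adjusted p = 0.478).

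Junb (chromosome 8, 87500808 to 87502647, mm9) encodes the Jun-type protein of the early response, a weaker activator than Jun. Its RPKM in wild type ran from 19.1 to 23.96 with a median of 22.1 at rest and from 42.8 to 66.6 with a median of 46.7 after training. In heterozygotes it ran from 20.2 to 24.4 with a median of 22.4 at rest and from 42.7 to 52.5 with a median of 49.8 after training. The groups were far apart in both genotypes, and the highest value again belonged to mouse 2436. The mean was 2.25-fold higher after training in wild type and 2.18-fold higher in heterozygotes (exact permutation test, p = 0.00216 in each), with limma differences of 1.14 ± 0.08 (SE; adjusted p = 3.05e-09) and 1.11 ± 0.08 (adjusted p = 4.96e-09). In RPKM, the 27.1 gained by Junb in wild type was more than the 12.4 gained by Fos.

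Jun (chromosome 4, 94715727 to 94718913, mm9) encodes c-Jun, the main partner of Fos and a target of the Jun kinases. Its RPKM in wild type ran from 28.0 to 41.4 with a median of 37.5 at rest and from 35.2 to 43.9 with a median of 37.1 after training. In heterozygotes it ran from 27.6 to 39.2 with a median of 35.1 at rest and from 33.6 to 42.1 with a median of 38.5 after training. Trained and home cage groups overlapped in both genotypes. The mean was 1.05-fold that of the home cage in wild type (exact permutation test, p = 0.517) and 1.12-fold in heterozygotes (exact permutation test, p = 0.0628). The limma difference was 0.07 with a 95% interval from -0.10 to 0.25 (adjusted p = 0.808) in wild type and 0.16 with an interval from -0.01 to 0.34 (adjusted p = 0.495) in heterozygotes. In heterozygotes each animal of the 2 groups was also left out in turn. The exact permutation p then fell under 0.05 only without the trained mouse 2416 (0.0173) or the home cage mouse 2417 (0.026). By limma, with each of the 24 libraries left out, the adjusted p ran from 0.347 to 0.829.

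Jund (chromosome 8, 73221638 to 73224515, mm9) encodes a Jun-type protein linked to survival and slow growth of cells. Its RPKM ran from 38.4 to 47.9 with a median of 41.8 in wild type at rest and from 39.5 to 46.5 with a median of 42.5 after training. It ran from 40.0 to 47.0 with a median of 42.9 in heterozygotes at rest and from 41.9 to 44.2 with a median of 43.6 after training. All 4 groups overlapped. The limma difference with training was 0.04 (95% interval -0.07 to 0.14, adjusted p = 0.842) in wild type and 0.01 (-0.09 to 0.12, adjusted p = 0.944) in heterozygotes. Any response of Jund at this time was thus bounded well below that of Fosb or Junb.

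**Figure D2:**
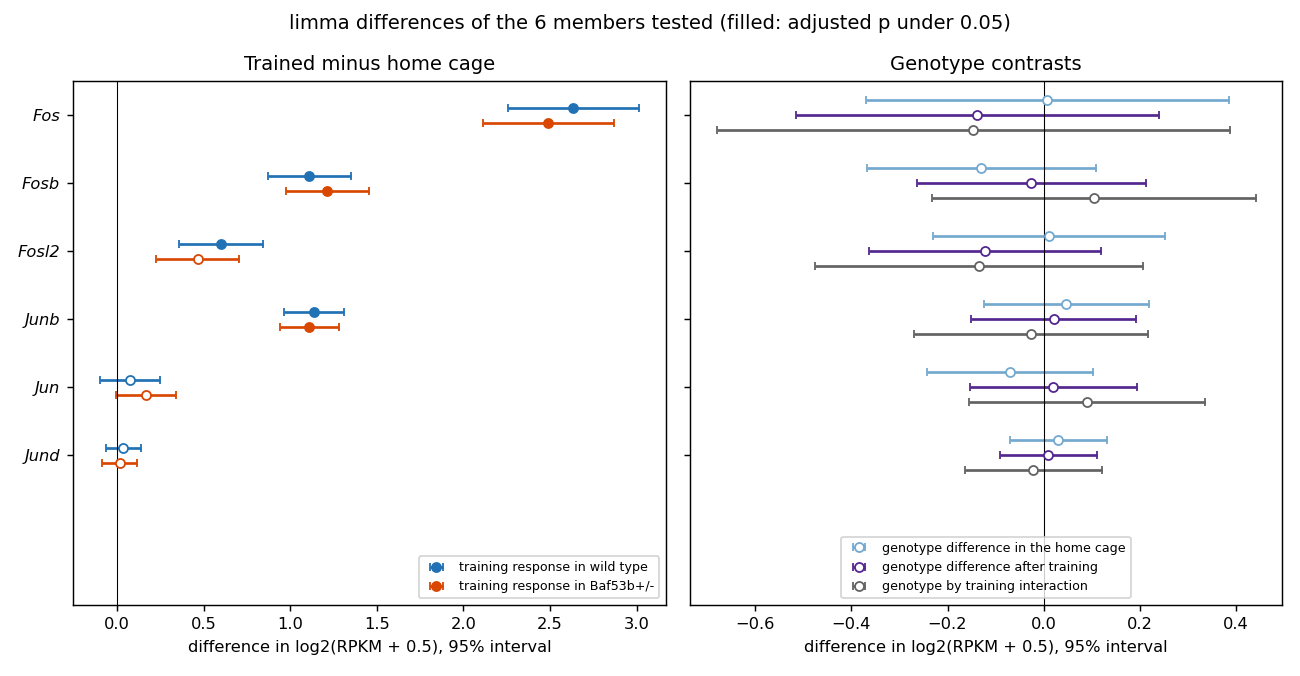
Differences in log2(RPKM + 0.5) of the 6 members tested by limma, with 95% intervals, for training in each genotype and, on another axis scale, for the genotype contrasts; filled points passed at an adjusted p under 0.05. Fos lay at 2.63 in wild type and 2.49 in Baf53b+/- mice, Jund lay at 0.04 and 0.01, and every interval of a genotype contrast included 0.

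Atf3 (chromosome 1, 192994176 to 193007212, mm9) encodes a stress-induced factor that usually represses its targets. It was the scarcest member, with between 15 and 69 reads per library as recovered from the values at a transcript length of 1978 bases. This length was chosen because it brought these same values nearest to whole reads, so their closeness is no separate check of it. There 22 of 24 values came within 0.15 reads, with a mean distance of 0.05 beside a median of 0.25 over the lengths tried. In wild type the RPKM of Atf3 ran from 0.382 to 0.658 with a median of 0.468 at rest. After training it ran from 0.522 to 0.792 with a median of 0.653. In heterozygotes it ran from 0.241 to 0.574 with a median of 0.437 at rest and from 0.775 to 1.07 with a median of 0.953 after training. The wild-type groups overlapped, with 3 of 6 trained mice above all 6 home cage mice, whereas the heterozygous groups did not overlap. Summed over a group, the reads went from 200 to 264 in wild type and from 190 to 361 in heterozygotes.

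The mean RPKM of Atf3 was 1.37-fold higher after training in wild type (0.486 ± 0.103 against 0.665 ± 0.102, SD; exact permutation test, p = 0.0195, n = 6). In heterozygotes it was 2.19-fold higher (0.426 ± 0.114 against 0.934 ± 0.106, SD; exact permutation test, p = 0.00216, n = 6). In the limma fit of all 19661 genes without a filter the difference was 0.24 ± 0.08 (SE; adjusted p = 0.278) in wild type and 0.64 ± 0.08 (adjusted p = 0.000104) in heterozygotes. Among trained mice the heterozygotes had 1.40-fold the wild-type level, with 5 of 6 above all wild types (exact permutation test, p = 0.00433, n = 6). This p is 1 of 28 for the 7 members in 4 comparisons and is not adjusted. In the limma fit of all genes without a filter, the same difference was 0.30 ± 0.08 (SE) with an adjusted p of 1, and the interaction was 0.39 ± 0.12 with an adjusted p of 0.988. No difference of Atf3 between genotypes passed, therefore, when all genes were counted.

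The other 6 members did not differ detectably between genotypes. In the home cage 0 of 6 passed in limma, where 0.00807% of genes passed, and 437 of the 12399 genes had an unadjusted p under 0.05. Among trained mice 0 of 6 passed, where again 0.00807% of genes passed and 458 genes had an unadjusted p under 0.05. For the interaction, which sets the training response of heterozygotes against that of wild types, 0 of 6 passed, where 0% of genes passed and 309 genes had an unadjusted p under 0.05. The 95% intervals of the interaction, in log2(RPKM + 0.5), were -0.68 to 0.39 for Fos, -0.23 to 0.44 for Fosb, -0.48 to 0.21 for Fosl2, -0.27 to 0.22 for Junb, -0.15 to 0.34 for Jun and -0.16 to 0.12 for Jund. These intervals leave room for a moderate difference in the response of Fos and bound that of Jund closely. Exact permutation tests of the 6 members between genotypes gave p from 0.258 to 0.913 in the home cage and from 0.563 to 0.972 after training.

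Training thus went with a different make-up of the family. The summed RPKM of the 7 members was 110.1 ± 5.39 (SD, n = 6) in wild type at rest and 158.5 ± 16.5 after training, and in heterozygotes 109.6 ± 3.37 and 157 ± 6.79. Jund and Jun together with Junb held most of this sum in every group. In wild type the share of Jund was 38.3% at rest and 27.3% after training, that of Jun 33.03% and 24.2%, and that of Junb 19.8% and 30.7%. The share of Fos was 1.73% at rest and 8.90% after training, that of Fosb 1.51% and 2.63%, and that of Fosl2 5.22% and 5.84%. Atf3 held 0.441% and 0.422% in wild type, and 0.388% and 0.595% in heterozygotes. In heterozygotes Fos went from 1.70% to 8.02%, Junb from 20.5% to 31.3% and Jund from 39.2% to 27.7%. For every 100 RPKM of Jun-type transcripts there were 9.29 ± 1.32 RPKM of Fos-type transcripts in wild type at rest and 21.2 ± 3.91 after training. The same ratio in heterozygotes was 9.15 ± 0.993 at rest and 18.9 ± 1.56 after training. Jun-type transcripts therefore exceeded Fos-type ones in each group.

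**Figure D3:**
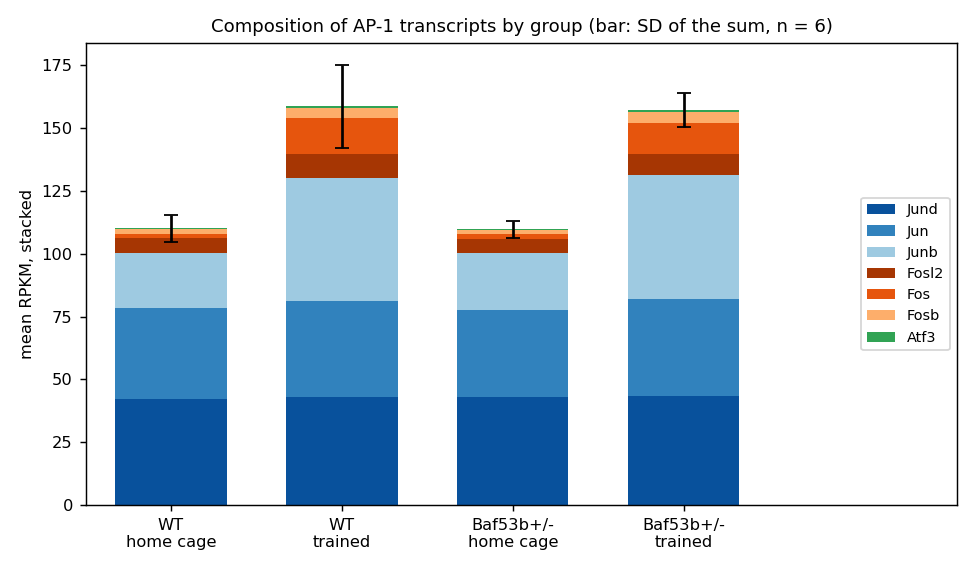
Mean RPKM of the 7 members stacked by group, with Jun-type genes in blue, Fos-type genes in orange and Atf3 in green, and a bar for the SD of the sum over 6 mice. The sum was 110.1 RPKM in wild type at rest and 158.5 RPKM after training, with the added height in Junb and Fos and nearly constant blocks of Jund and Jun.

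By mean RPKM the order at rest in both genotypes was Jund, Jun, Junb, Fosl2, Fos, Fosb and Atf3. Neighbours in that order were separated without overlap except for Fos and Fosb in both genotypes, and for Jund and Jun in wild type. After training Junb came first, ahead of Jund and Jun, in both genotypes. These 3 overlapped in wild type, whereas in heterozygotes Junb overlapped with Jund and Jund with Jun, but the lowest Junb, 42.7 RPKM, was above the highest Jun, 42.1 RPKM. Fos came next and passed Fosl2, being above it in 5 of 6 wild-type mice, with overlapping ranges, and in 6 of 6 heterozygotes. Fosb and Atf3 kept the last places without overlap.

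Members that responded did not clearly vary together from mouse to mouse. Deviations of log2(RPKM + 0.5) from the group means were correlated over the 24 animals for all 21 pairs of members, and no pair passed after Benjamini-Hochberg adjustment of the permutation p-values. Fosb and Fosl2 had Pearson's r = 0.57 (p = 0.0228, adjusted p = 0.223) and Spearman's rho = 0.57 (p = 0.00596, adjusted p = 0.125), and r was 0.72 without the 2 animals farthest from the median. Fos and Junb had r = 0.54 (p = 0.0297, adjusted p = 0.223) and rho = 0.43 (p = 0.0575, adjusted p = 0.508), r was 0.42 without the 2 farthest animals, and r was 0.25 without mouse 2436. Fos and Fosb had r = 0.50 (p = 0.0319, adjusted p = 0.223) and rho = 0.37 (p = 0.104, adjusted p = 0.508), with r = 0.13 without the 2 farthest animals. Mouse 2436 had the highest Fos, Fosb and Junb of all 24 animals. Mouse 2421 had the highest Fosl2 and the second highest Fosb.

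**Figure D4:**
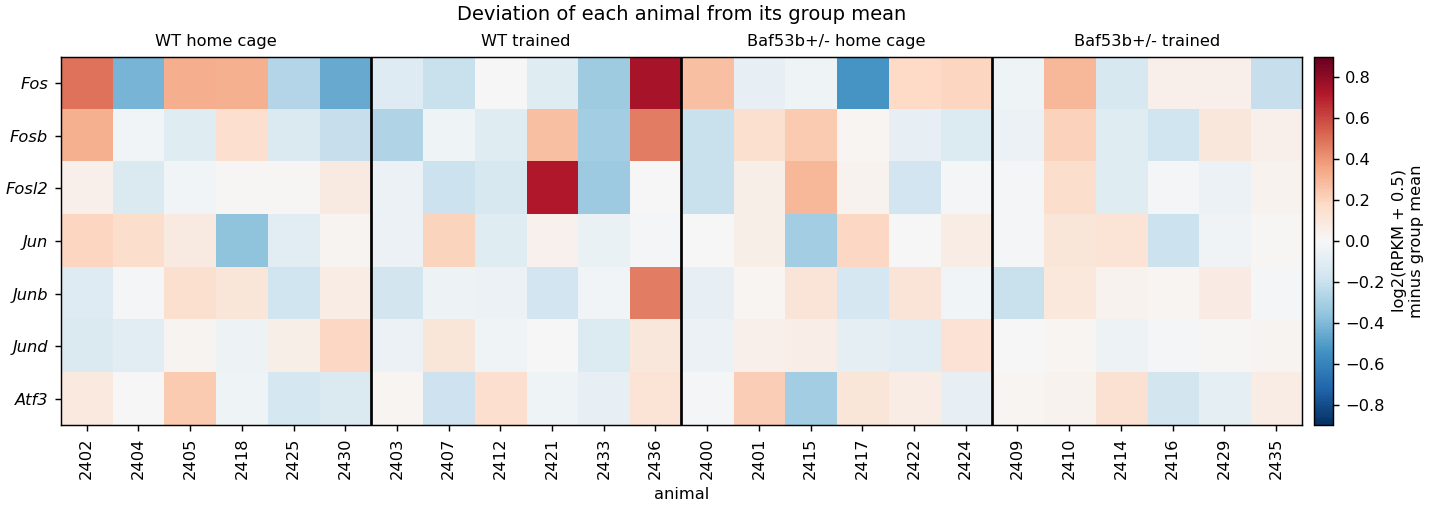
Deviation of each of the 24 mice (horizontal axis) from its group mean in log2(RPKM + 0.5), for the 7 members (vertical axis), in red above and in blue below. Mouse 2436 was high for Fos, Fosb and Junb at once, and mouse 2421 for Fosl2, at 15.04 RPKM.

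Genes whose deviations were most like those of each member were taken as the 3 highest Pearson correlations among the 12399 genes over the 24 animals, as a description without a test. For Fos they were Egr2 (r = 0.82), Anapc13 (0.78) and Trappc4 (0.76), and for Junb they were Nr4a1 (0.89), 2810428I15Rik (0.79) and Commd4 (0.77). For Fosb they were Lysmd4 (0.75), Pnpla6 (0.73) and Tgfb3 (0.71), and for Fosl2 they were Sstr1 (0.88), Ak1 (0.86) and Rgs4 (0.85). For Jun they were Smad3 (0.88), 9930013L23Rik (0.88) and Slc44a5 (0.87). For Jund they were Cntfr (0.81), Ndufs7 (0.80) and Ift27 (0.80), and for Atf3 they were Zfp113 (0.74), Xpo7 (0.71) and Kif17 (0.70). The points share a library each, and a few animals can set such a value.

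Jun moved with markers of the dentate gyrus between animals of the same group. A score was taken as the mean log2(RPKM + 0.5) of Prox1, Dsp and C1ql2, and each of the 7 members was set against this score, a CA1 score and a choroid plexus score, which makes 21 relations. Jun and the dentate score had Pearson's r = 0.71 (permutation p = 0.00194, adjusted p = 0.0407) and Spearman's rho = 0.57 (permutation p = 0.0047, adjusted p = 0.0987), and r was 0.77 without the 2 animals farthest from the median score. The 3 lowest scores were 3.44 in mouse 2415, 3.91 in mouse 2421 and 4.12 in mouse 2418, and r was 0.58 without these 3. Mice 2415 and 2418 had the lowest Jun of the 24, at 27.6 and 28.0 RPKM. Fosl2 ran the other way, with r = -0.62 (permutation p = 0.00557, adjusted p = 0.0585) and rho = -0.40 (permutation p = 0.0688, adjusted p = 0.482), but r was -0.19 without the 2 farthest animals, so that the relation rests on them. With the CA1 score Fosl2 had r = 0.45 (permutation p = 0.0117, adjusted p = 0.0816) and rho = 0.49 (permutation p = 0.0151, adjusted p = 0.158), and r was 0.41 without the 2 animals farthest from the median CA1 score and 0.28 without the 3 mice of lowest dentate score. With the dentate score as a term in the fit, a choice made after these values were seen, training raised Fosl2 by 0.53 (adjusted p = 0.00246) in wild type and by 0.54 (adjusted p = 0.00251) in heterozygotes. In that fit Fos, Fosb and Junb again passed, at 2.63, 1.08 and 1.13 in wild type and 2.49, 1.25 and 1.11 in heterozygotes. Jun did not pass there, at 0.13 (adjusted p = 0.457) in wild type and 0.10 (adjusted p = 0.633) in heterozygotes, and neither did Jund. Pearson's r with the choroid plexus score did not exceed 0.26 in size for any member.

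**Figure D5:**
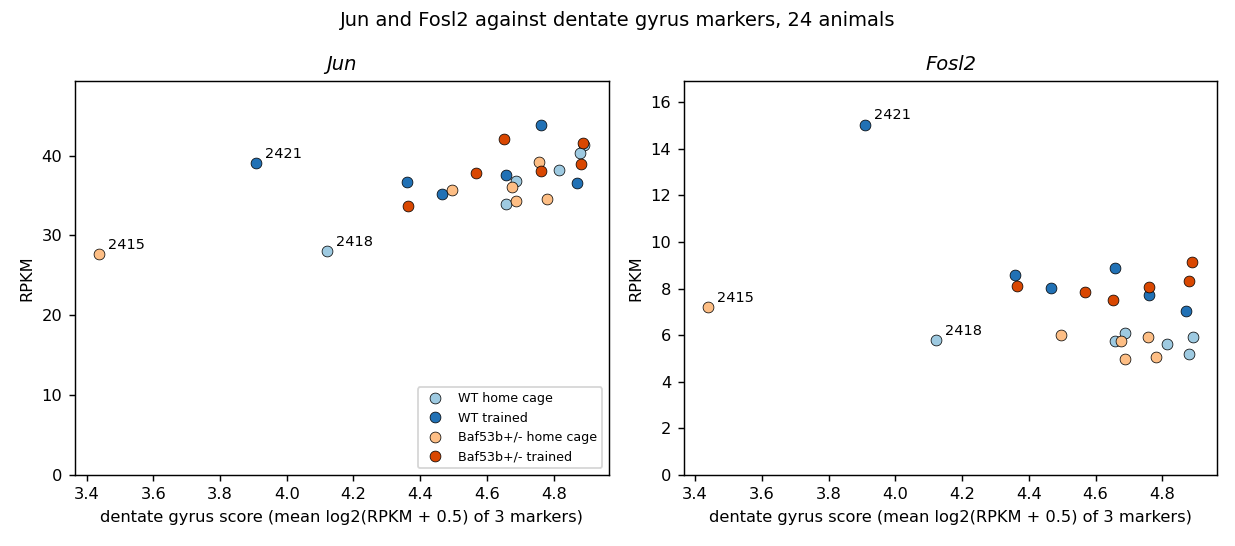
RPKM of Jun and Fosl2 (vertical axes, from 0) against the dentate gyrus score, the mean log2(RPKM + 0.5) of 3 markers, in 24 mice coloured by group. Mice 2415, 2421 and 2418 had the lowest scores, of 3.44, 3.91 and 4.12, and 2421 had the highest Fosl2, at 15.04 RPKM.

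Relatives, regulators and targets of the family were described from lists chosen with earlier results of these data known. Of 23 relatives and partners, bZIP factors such as Atf2, Atf4 and the Maf proteins, 17 were tested, and 0 passed for training in either genotype by limma, although 5 had an unadjusted p under 0.05 in wild type and 0 in heterozygotes. Over all 12399 genes, 11.07% in wild type and 10.99% in heterozygotes had such a p. Their median difference was 0.05 in wild type and 0.04 in heterozygotes, beside 0.01 and 0.00 over all genes. The nearest to the threshold was Cebpg, a C/EBP factor, at 0.14 ± 0.05 (SE, adjusted p = 0.186) in wild type. Fosl1, the Fos-type gene on that list, was at 0 to 0.212 RPKM and was not tested.

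Of 27 kinases and factors that act upstream of Fos and Jun, such as the MAP kinases and Creb1, all were tested and Srf alone passed. Srf, which binds the CArG boxes of early genes, was higher after training by 0.19 ± 0.04 (SE, adjusted p = 0.0171) in heterozygotes, by 0.14 ± 0.04 (adjusted p = 0.103) in wild type and by 0.16 ± 0.03 (adjusted p = 0.000889) in the average over genotypes. For that average 4.17% of the 12399 genes passed, 3.26% as higher, and of the members Fos, Fosb, Fosl2 and Junb did so, 4 of 6. The list's median difference was -0.02 in wild type and 0.01 in heterozygotes. Among 12 genes that control the turnover of AP-1 transcripts and proteins 0 passed in limma, with 1 at an unadjusted p under 0.05 in each genotype, beside 11.07% and 10.99% of all genes. Zfp36l1, which promotes decay of transcripts with AU-rich elements, had a difference of 0.22 ± 0.07 (SE, adjusted p = 0.189) in wild type.

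Of 18 genes described as AP-1 targets 11 were tested, and 0 passed after training in either genotype by limma, with 1 at an unadjusted p under 0.05 in wild type and 3 in heterozygotes, beside 11.07% and 10.99% of all genes. Their median difference was 0.03 in wild type and 0.05 in heterozygotes. Ccnd1, which encodes cyclin D1, had a difference of 0.35 ± 0.10 (SE, adjusted p = 0.104) in wild type. In heterozygotes Scg2, which encodes the precursor of secretoneurin, had a difference of 0.16 ± 0.06 (adjusted p = 0.279), and Cdk5, a neuronal kinase, one of -0.10 ± 0.03 (adjusted p = 0.168). No member of the 4 lists passed in a genotype comparison or in the interaction by limma. The numbers with an unadjusted p under 0.05 were at most 2 per list. In the home cage 2 of 17 relatives and partners and 2 of 11 targets had such a p. Over all 12399 genes the share was 3.52% in the home cage, 3.69% after training and 2.49% for the interaction.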

How the data were processed

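Libraries were made from dorsal hippocampal RNA of both sides with the TruSeq RNA v2 kit and sequenced on an Illumina HiSeq instrument with single-end 50-cycle reads, per the labels' protocols. The kit keeps no strand, so that reads of overlapping antisense genes cannot be told apart. Build mm9, Bowtie 0.12.8 and CASAVA 1.8.2 are named in the submitters' processing notes. Values are RPKM as deposited by the authors, in a single table with a column for each animal. Annotation, counting and each animal's pool were not given in the sources used here. No batch could be fitted.

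The log2 of RPKM plus a pseudocount of 0.5 was tested with limma 3.58.1 in R 4.3.3 for 12399 genes whose mean reached 1 RPKM. The 4 groups shared 1 model, with trend and robust settings, Benjamini-Hochberg adjustment over all genes tested and a threshold of 0.05. The fit was tested on simulated data first. Exact permutation tests, two-sided, used all 924 splits of 12 animals and the difference of mean RPKM, and correlations used 100000 permutations within groups (Python 3.11.15, scipy 1.17.1). Depth was the smallest read total at which low values of 971 single-exon genes came near whole reads, with 46.3% to 56.6% within 0.05 reads.

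All 7 members were named in every comparison, with Actl6b. From each list the text may name up to 4 genes that passed, ordered by p, or up to 2 where none passed, and for each member the 3 genes with the highest correlation. The members and lists were chosen with earlier results of these data known. Alternatives were other pseudocounts, filters, scalings and limma settings, sex (called from Ddx3y and Xist), choroid plexus or dentate scores as terms, groups fitted alone, and libraries left out. The 2 blood markers were not analysed here.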

Additional observations from a re-analysis of the deposited data

Results flagged for a closer look

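In 32 groups of 6 values, for the 7 members and Actl6b, the gap between the most extreme animal and its nearest neighbour was compared with Dixon's 95% critical value, which chance exceeds in about 1 in 20 groups. Among the trained wild-type mice, mouse 2436 stood apart for Fos at 23.4349 RPKM and for Junb at 66.6098 RPKM. In the same group, mouse 2421 stood apart for Fosl2 at 15.0373 RPKM. Without both animals, left out after their values were seen, the training difference of Fosl2 in wild type was 0.42 (limma, adjusted p = 0.00515).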

How the results depend on the processing

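Under 13 alternatives for each simple comparison, the training differences of Fos, Fosb and Junb kept their direction and passed wherever they were tested, while Jun, Jund and all genotype contrasts passed in none. A filter of 5 RPKM removed Fosb, so that 3 members passed in wild type and 2 in heterozygotes. Fosl2 in wild type, 0.60, did not pass without the 7 libraries rich in choroid plexus markers (0.69, adjusted p = 0.0561) or with its 2 groups fitted alone (0.60, adjusted p = 0.0976). Fosl2 in heterozygotes, 0.46, passed with a pseudocount of 0.1 (0.49, adjusted p = 0.0487), with its 2 groups alone (adjusted p = 0.00722) and without home cage mouse 2415 (0.52, adjusted p = 0.0309) or trained wild-type mouse 2433 (adjusted p = 0.04). Without the 7 libraries rich in choroid plexus markers, Fosl2 in heterozygotes was 0.44 (limma, adjusted p = 0.478), the highest adjusted p among its alternatives. With each library left out in turn Fosl2 ranged from 0.42 to 0.52 in heterozygotes and from 0.45 to 0.66 in wild type. The sex calls were even in the wild-type groups but not among heterozygotes. Of the home cage heterozygotes only mouse 2401 was called female, and of the trained ones mice 2409, 2410 and 2429 were. With sex as a term, Fosl2 in heterozygotes was 0.42 (limma, adjusted p = 0.108), and Fosb there was 1.12, beside 1.21 without it, and passed.

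The number of all genes that passed, 134 in wild type, 128 in heterozygotes and 517 in the average, was 83, 84 and 339 with a filter of 5 RPKM, and 69, 42 and 235 without the 7 libraries. It was 75 and 85 with the groups fitted alone, and 76 in wild type without mice 2421 and 2436. Between genotypes after training it was 1, and 1 or 2 under the alternatives, libraries left out included. Other scalings moved the median of all genes by at most 0.02. No paired analysis was possible because each replicate number names 1 animal and is shared by no 2 groups. Reads limit Atf3, with 15 to 69 per library, more than the other members.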
